A study of Xenopus laevis with 2 samples.

Results

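The planar cell polarity and convergent extension core was read here as 10 gene symbols: VANGL1, VANGL2, PRICKLE1, PRICKLE2, CELSR1, DVL1, DVL2, DVL3, ROR2 and PTK7. Every gene model of the deposited expression table that carries one of these symbols was taken, which gave 21 of 24364 models, or 0.0862% of the table. The samples are 2 libraries of Xenopus laevis animal caps, the pluripotent ectodermal roof of the early embryo, both from embryos injected between the 2-cell and the 4-cell stage with RNA for xnr2, a Nodal ligand. Caps were cut at stage 10 and collected at stage 14, and RNA came from pools of 10 explants. The labels number the libraries 1 and 3 and give both the same stage and the same exogenous xnr2. The 2 libraries form 1 group without control caps, so a level given here is not a response to xnr2, and any spread between them may be technical, since the labels do not name a clutch.

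Planar cell polarity is the alignment of cells within the plane of a tissue. Its core proteins sort to opposite sides of each cell, with Frizzled and Dishevelled on one side, Vangl and Prickle on the other, and the cadherin Celsr at both. In the vertebrate gastrula the same proteins act downstream of non-canonical Wnt ligands in convergent extension, in which dorsal mesoderm and neural plate cells intercalate towards the midline and lengthen the body axis. Animal caps that receive a Nodal or activin signal are known to elongate by this movement, which makes them a classic assay of the pathway.

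Library 1 held 25880104 exon reads and library 3 held 29238297, and levels are given as reads per 1000000 exon reads (CPM). Over the 18820 models with 10 reads or more in both libraries together, a chi-square of the counts gave 45.6 per degree of freedom. The libraries thus differ by more than counting error and are not 1 set of counts deposited more than once. Whether both come from 1 RNA sample cannot be told from this value. Muscle and paraxial mesoderm markers were high, with 15 of 16 models at 1 CPM or more in both libraries and summed levels of 16292 and 16578 CPM in libraries 1 and 3. Over all models of the table, 62.8% reached 1 CPM in both libraries, and no tissue is named from the counts of these lists. Axial mesoderm markers summed to 420.4 and 773 CPM, with 7 of 12 models at 1 CPM. Epidermal markers, which untreated cap tissue comes to express, summed to 97.3 and 13.8 CPM with 4 of 14 models at 1 CPM. The endoderm list had 7 of 15 models at 1 CPM and summed to 1087 and 1113 CPM, with HHEX at 0 reads. The neural plate list (8 of 14 models) summed to 535 and 571 CPM, and the multiciliated list (7 of 13) to 125 and 272 CPM. The blood and endothelial list (2 of 6) summed to 368 and 380.1 CPM, with GATA1 at 0 reads. A few models made up most of the muscle, axial mesoderm, endoderm, neural plate, multiciliated and blood sums. The muscle and paraxial mesoderm sum was mostly MYL1, ACTC1 and CKM, led in library 1 by MYL1 on 9_10L at 4203 CPM (3262 CPM in library 3). In the axial mesoderm list, CHRD on 5S had 271 and 453 CPM. An A2M model on 7S had 892 and 948 CPM, and LMO2 on 4S had 360 and 372 CPM. In the neural plate list, TUBB2B had 260 and 289 CPM on 8L and 237 and 239 CPM on Scaffold20. Every other neural plate model lay at or below 11.7 CPM.

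Models are placed on assembly 9.1, and X. laevis, an allotetraploid, carries a long (L) and a short (S) copy of most chromosomes. The deposited names follow human symbols, so the genes next to each of the 21 models were compared with the genes next to the RefSeq entries of assembly v10.1. Only entries of the member symbols and of PRICKLE3, PRICKLE4, CELSR2, CELSR3 and ROR1 could be matched, so other genes were not considered. Among these, the entry with the most shared neighbours carried the same symbol for 19 models. The model called DVL3 on chromosome 7L (86995562 to 87086311) was an exception. It lies between MXRA8 and GLTPD1, and 7 of its 12 neighbours surround dvl1.L in RefSeq and 0 surround any other entry of these families. The model called PRICKLE2 on 8S (35454168 to 35470432) was the other, since it lies between PLP2 and SYP and 9 of its 12 neighbours surround prickle3.L in RefSeq. The DVL2 model on Scaffold20 shares 3 of 12 neighbours with dvl2.L and 9 of 12 with a stretch of chromosome 3S. Symbols are given below as deposited.

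Most of the core was expressed well above the middle of the table. Of the 21 models, 19 reached 1 CPM in both libraries, where 62.8% of all models did. The models below 1 CPM were DVL1 on 7S and the DVL3 model on 7L. Divided by exon length, the median member stood at 10.4 CPM per kb of exon (RPKM), against 1.91 RPKM over all 24364 models, and 17 of the 21 lay above that median. In a mixed explant, fewer expressing cells and less RNA per cell cannot be told apart.

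Added over copies, the order by level per kb was PRICKLE1 at 91.5 ± 15.3 RPKM, VANGL2 at 57.2 ± 10.8, PTK7 at 51.6 ± 3.44, DVL3 at 34.3 ± 4.49, DVL2 at 31.2 ± 2.11, ROR2 at 26.0 ± 7.96, CELSR1 at 8.19 ± 1.74, VANGL1 at 4.92 ± 0.961, PRICKLE2 at 4.50 ± 0.334 and DVL1 at 0 (SD, n = 2). The ranges of the libraries overlapped between VANGL2 and PTK7, between DVL3 and DVL2, between DVL2 and ROR2, and between VANGL1 and PRICKLE2, so the levels of these neighbours did not separate beyond the spread of the libraries. Within each library, VANGL2 was above PTK7, DVL3 above DVL2 and DVL2 above ROR2, while VANGL1 and PRICKLE2 changed order. PRICKLE1 lay above VANGL2, PTK7 above DVL3 and ROR2 above CELSR1 in both libraries, without overlap.

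**Figure D1:**
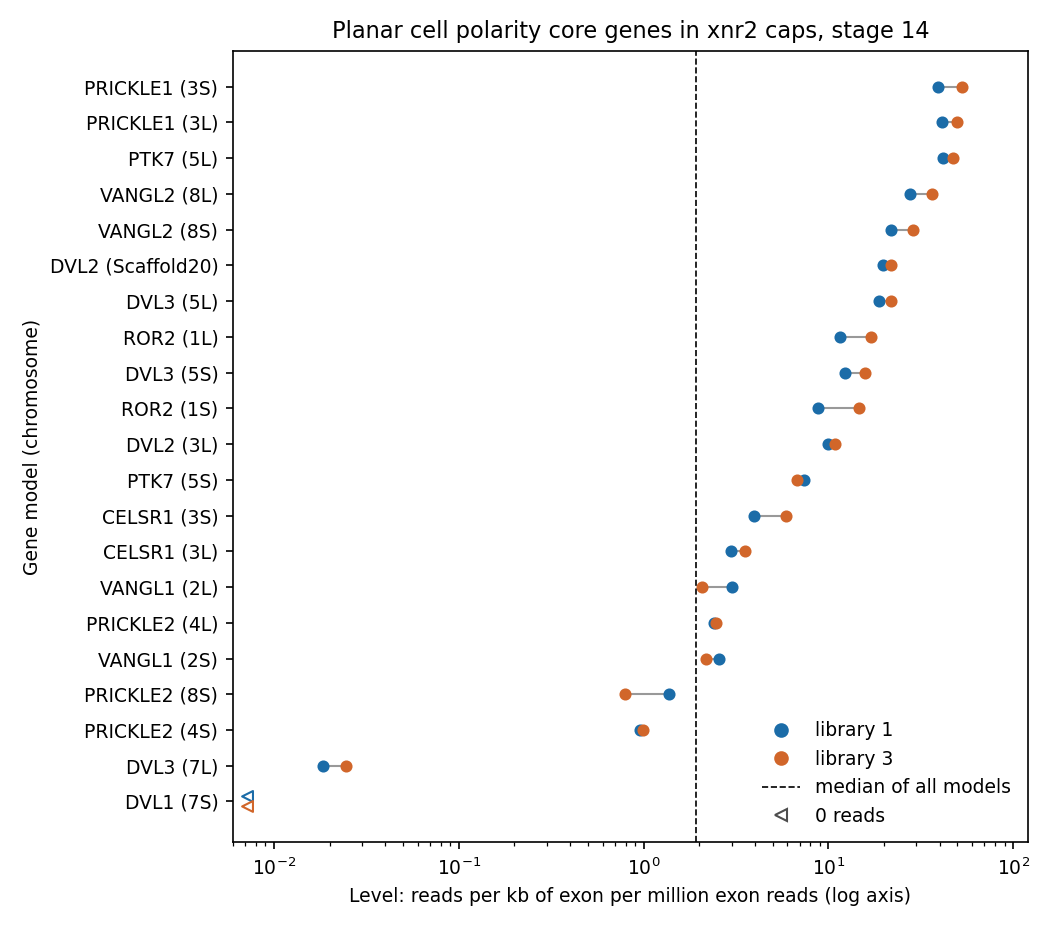
Level of each of the 21 models (x axis, RPKM, log scale) in library 1 (blue) and library 3 (orange), with the median of all models dashed. Both PRICKLE1 models and PTK7 on 5L lead near 45 RPKM, 17 models lie right of the dashed line at 1.91 RPKM, and DVL1 has 0 reads in both libraries (open triangles).

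Vangl proteins are 4-pass membrane proteins that recruit Prickle. VANGL2, known in Xenopus as Strabismus, stood at 103 and 134 CPM in libraries 1 and 3 on 8L (112271194 to 112326956), and at 81.4 and 107 CPM on 8S (94094717 to 94149233). Both copies were higher in library 3. VANGL1 was far lower, with 6.41 and 4.38 CPM on 2L (772964 to 782302) and 6.92 and 5.85 CPM on 2S (28949388 to 28959209). Per kb, VANGL2 exceeded VANGL1 8.84-fold in library 1 and 15.3-fold in library 3, and VANGL2 held 91.8 ± 2.84% of the family's level (SD, n = 2).

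Prickle proteins are cytoplasmic LIM-domain proteins that bind Vangl and oppose Dishevelled at the membrane. PRICKLE1 had 171 and 205 CPM on 3L (56120879 to 56132920) and 177 and 238 CPM on 3S (82067878 to 82131589), and at 46.0 ± 9.54 RPKM its S model had the highest mean of all 21, at the 91.9 percentile of the table. In library 1 alone, PTK7 on 5L (41.8 RPKM) and PRICKLE1 on 3L (41.4 RPKM) were above it (39.3 RPKM). Its copies overlapped in range. PRICKLE2 had 9.27 and 9.51 CPM on 4L (140842392 to 141078307) and 8.19 and 8.55 CPM on 4S (117894211 to 118003506). Neither moved beyond counting error between the libraries. The PRICKLE2 model on 8S, the one with the neighbours of prickle3.L, had 2.47 and 1.44 CPM. PRICKLE1 exceeded the 3 PRICKLE2 models together 17.0-fold per kb in library 1 and 24.0-fold in library 3.

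CELSR1 encodes a 7-pass cadherin, the vertebrate counterpart of fly Flamingo, which bridges neighbouring cells. It stood at 24.96 and 29.4 CPM on 3L (65670908 to 65782512) and at 46.0 and 68.4 CPM on 3S (73242544 to 73338795). Their exons span 8350 bp on 3L and 11590 bp on 3S, and per kb the models reached 3.26 ± 0.377 and 4.94 ± 1.37 RPKM. VANGL2 was 7.12-fold and 6.88-fold above CELSR1 per kb in libraries 1 and 3.

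Dishevelled proteins carry the signal from Frizzled into the cell, and in Xenopus DVL2 is the protein first described as Dishevelled. DVL2 had 53.7 and 59.5 CPM on Scaffold20 (7880370 to 7889508) and 26.6 and 28.9 CPM on 3L (143900230 to 143909386). DVL3 had 69.1 and 79.6 CPM on 5L (98149452 to 98199950) and 40.5 and 52.1 CPM on 5S (82201367 to 82247482). All 4 of these models had more CPM in library 3, though the interval of the difference held 0 for DVL2 on 3L. DVL1 on 7S (61831389 to 61854630) had 0 reads in either library, and the floor of 3 reads corresponds to 0.116 CPM in library 1 and 0.103 CPM in library 3. The upper ends of the 95% exact Poisson intervals were 0.143 and 0.126 CPM. The model on 7L with the neighbours of dvl1.L had 2 and 3 reads, so neither model with dvl1 neighbours was detected beyond a few reads. These bounds cover counting error only.

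Within the Dishevelled family DVL3 held 52.3 ± 1.58% of the level per kb, DVL2 47.7 ± 1.58% and DVL1 0% (SD, n = 2). DVL3 exceeded DVL2 1.05-fold and 1.15-fold in libraries 1 and 3, and their summed ranges overlapped. Without division by length the DVL3 share was 58.8 ± 1.49%.

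**Figure D2:**
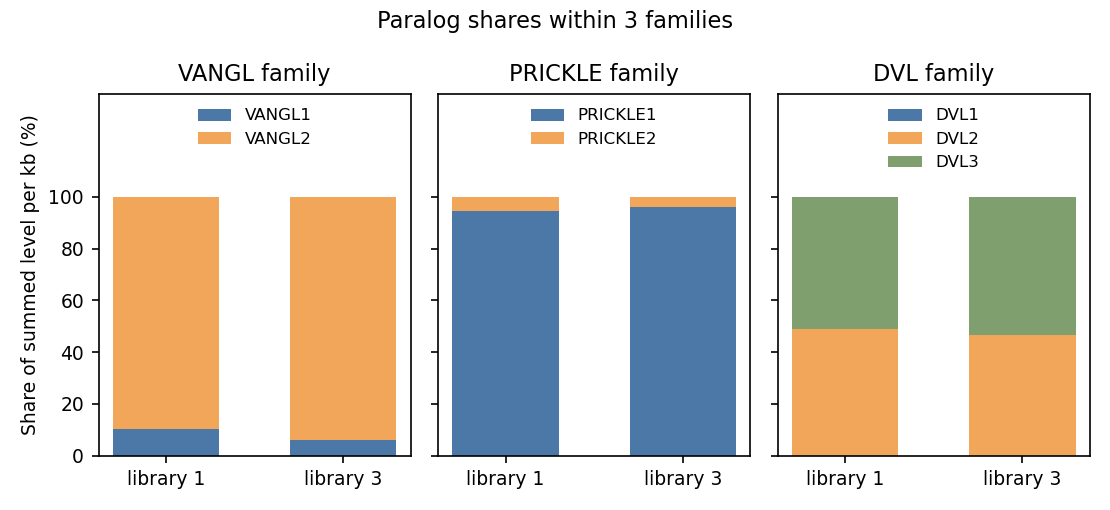
Share of each paralog in the summed level per kb of exon of its family (y axis, percent), as stacked bars for libraries 1 and 3. VANGL2 makes up 89.8% and 93.9% and PRICKLE1 94.5% and 96.0% of their families in libraries 1 and 3, while DVL2 and DVL3 share theirs nearly evenly and DVL1 adds nothing visible.

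The receptors of the list are single-pass proteins. ROR2 is a tyrosine kinase-like receptor for Wnt5a that acts with Frizzled, and PTK7 is a catalytically inactive kinase needed for polarity in neural tube closure. ROR2 had 51.4 and 74.8 CPM on 1L (137201379 to 137294014) and 35.8 and 60.2 CPM on 1S (114212046 to 114314609), and both copies were higher in library 3. PTK7 had 212 and 240.1 CPM on 5L (23826920 to 23858782) but 31.7 and 29.1 CPM on 5S (6709061 to 6742766). PTK7 exceeded ROR2 per kb 2.41-fold in library 1 and 1.71-fold in library 3.

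Among the core genes with an L and an S copy, the widest gap between the copies was that of PTK7, in both libraries. Of the 10 symbols, 8 had 1 model on the L and 1 on the S chromosome of the same number. With 2 libraries the smallest two-sided exact p is 0.5, so no exact test could pass a threshold, and a difference is described by whether it reached 1.5-fold per kb in both libraries. The L copy did so in 2 of 8 pairs (PTK7 and PRICKLE2), against 35.3% of 5069 pairs in the table with 10 reads or more in each copy. The S copy did so in 0 of 8, against 26.3% of all pairs. Models on scaffolds are left out of all these counts. Among them is the DVL2 model on Scaffold20, most of whose neighbours lie on a stretch of chromosome 3S. It passed 1.5-fold over DVL2 on 3L in both libraries, as given below. With 100 reads or more in each copy the member counts stayed at 2 and 0, against 32.7% and 25.5% of 3866 pairs. The median absolute log2 ratio of L over S was 0.44 among the 8 pairs and 1.04 over all 5069 pairs. The latter include pairs with few reads, so these medians are not read as a difference.

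The L copy of PTK7 stood at 41.8 and 47.2 RPKM and its S copy at 7.41 and 6.81 RPKM in libraries 1 and 3. The log2 ratio was 2.63 ± 0.211 (SD, n = 2), a 5.57-fold and 6.85-fold excess, and 90.3% of all pairs had a lower ratio. PTK7 was also the only one of the 8 pairs whose copies differed in sign between the libraries, the L copy being 1.13-fold higher in library 3 and the S copy 1.09-fold lower, though PRICKLE2 did so as well with TMM library sizes (-0.02 on 4L and 0.0049 on 4S) and with DESeq2 size factors (-0.0042 and 0.02). After the median of each model's length class was subtracted, both PTK7 copies were below 0, at -0.02 for L and -0.32 for S. The interval of the S copy's log2 ratio, -0.26 to 0.02, holds 0.

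The L copy of PRICKLE2 was 2.38-fold and 2.34-fold above the S copy per kb, but this rests on the exon lengths of the models, 3851 bp for L and 8581 bp for S. Without division by length the log2 ratio fell from 1.24 ± 0.0152 to 0.16 ± 0.0180. Per kb, with 1 rather than 0.1 added to both levels, it was 0.80. For CELSR1 the S copy was the higher, 1.32-fold in library 1 and 1.66-fold in library 3, and without division by length the log2 ratio of L over S moved from -0.56 ± 0.234 to -1.05 ± 0.237. DVL3 was 1.54-fold and 1.38-fold higher from L, ROR2 1.32-fold and 1.15-fold, and VANGL2 1.28-fold and 1.26-fold. VANGL1 and PRICKLE1 changed sides between the libraries, at log2 0.23 and -0.07 for VANGL1 and 0.07 and -0.09 for PRICKLE1, whereas without division by length the S copy of both genes was the higher in both libraries. DVL2, outside these pairs, was 1.98-fold and 2.02-fold higher per kb from Scaffold20 than from 3L. Reads that match both copies of a gene may have been split or lost, their handling being not given in the sources used here.

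**Figure D3:**
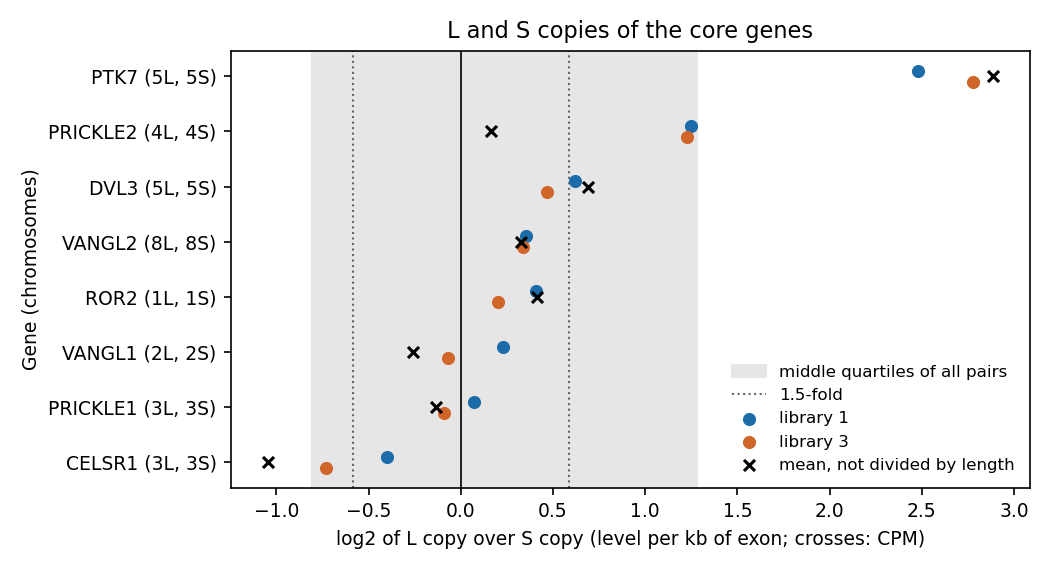
log2 of the L over the S copy per kb of exon (x axis) for the 8 genes with a pair, in library 1 (blue) and library 3 (orange), with the mean ratio not divided by length as crosses and the middle quartiles of all 5069 pairs in grey. PTK7 lies beyond 1.5-fold (dotted) on either measure, whereas PRICKLE2 lies beyond it only when divided by length. The crosses of DVL3 (0.69) and CELSR1 (-1.05) lie beyond it too. Per kb these genes pass it only in library 1 for DVL3 and in library 3 for CELSR1.

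Core gene levels were also set side by side between libraries 1 and 3, which compares these libraries and not conditions. Of 19 member models with 10 reads or more in both libraries together, ROR2 on 1S passed 1.5-fold towards library 3 and the PRICKLE2 model on 8S passed it towards library 1. That is 1 of 19 in each direction, against 13.0% of 18820 models higher and 11.0% lower. With TMM library sizes the split was 1 higher and 2 lower, as VANGL1 on 2L joined, against 11.2% and 12.5% of all models.

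The ROR2 copies moved together, at a log2 ratio of library 3 over library 1 of 0.75 on 1S (95% exact binomial interval 0.63 to 0.87) and 0.54 on 1L (0.44 to 0.64). CELSR1 on 3S followed at 0.57 (0.47 to 0.68), while its copy on 3L was at 0.24 (0.09 to 0.39). The VANGL2 copies were at 0.38 and 0.40 on 8L and 8S and the PRICKLE1 copies at 0.26 and 0.43 on 3L and 3S. At the other end lay the PRICKLE2 model on 8S at -0.74 (-1.38 to -0.20), VANGL1 on 2L at -0.54 (-0.90 to -0.21) and VANGL1 on 2S at -0.24 (-0.55 to 0.07). Intervals, which cover counting error only, lay above 0 for 12 models, below 0 for 2 and held 0 for 5, and with TMM library sizes the counts were 11, 3 and 5. Of all 18820 models, 31.9% had an interval above 0 and 24.5% one below 0. Intervals narrow with the number of reads, and the members' median level was 46.3 CPM against 4.53 CPM over all models, so the members' count is not read as a difference from the rest.

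Exon length moved with these ratios. The median log2 ratio of all models rose from -0.12 in the shortest of 5 length classes to 0.20 in the longest, which holds 10 of the 19 member models. The members' median was 0.20, against 0.05 for all models. It was 0.04 after the median of each model's length class was subtracted, which brings the median of all models to 0. ROR2 on 1S was then at 0.55, under 1.5-fold, and the PRICKLE2 model on 8S at -0.72. The summed levels of the epidermal, axial mesoderm and multiciliated lists, given above, differed between the libraries as well. The other sums changed less. Within the near-equal muscle and paraxial mesoderm sums, 10 models were higher in library 3 and 6 lower. Such counts of models take any difference in CPM without a minimum of reads, as for MCIDAS on 1L at 0 and 1 reads. No share over all models stands beside them, so they only describe the lists. CKM on 8L had 3859 and 2865 CPM in libraries 1 and 3, and TBX6 on 1L had 32.1 and 86.2 CPM. The epidermal sum was lower in library 3, with 11 of 14 models lower and 1 higher, TP63 on 5L at 1.24 and 1.98 CPM. ITLN1, a secreted lectin of epidermis, had 30.4 and 0.718 CPM. The axial mesoderm sum was higher in library 3, with 10 of 12 models higher, and the brachyury gene T had 58.7 and 108.5 CPM on 5L. The multiciliated sum was higher too, with 10 of 13 models higher and 3 lower. Most of it was the tubulin TUBA1A on 9_10S at 80.4 and 206.5 CPM. A FOXJ1 model on 9_10S was among the lower ones, at 5.45 and 3.42 CPM, and the MCIDAS models had at most 2 reads. The part of these markers, or of read length, in the ratios was not tested.

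**Figure D4:**
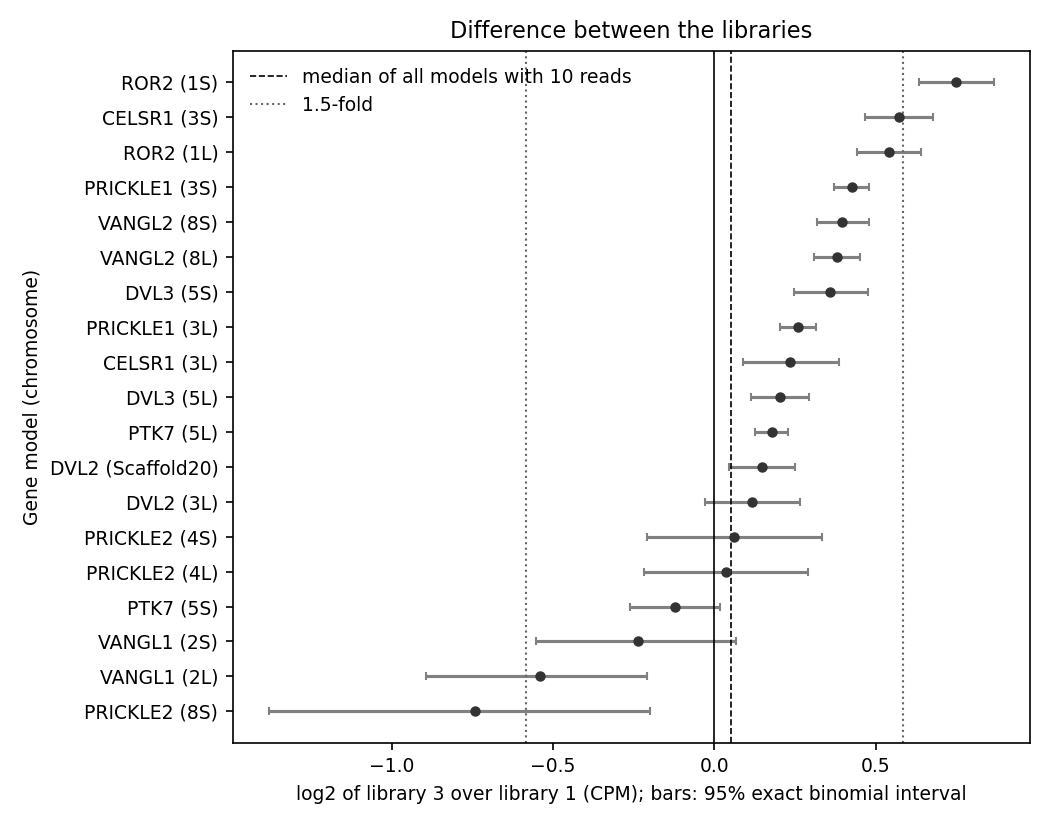
log2 ratio of library 3 over library 1 in CPM (x axis) for the 19 models with 10 reads or more, with 95% exact binomial intervals as bars, 1.5-fold dotted and the median of all models dashed at 0.05. Only ROR2 on 1S and the PRICKLE2 model on 8S lie beyond 1.5-fold, and both VANGL1 models lie left of 0.

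Other genes of the pathway were read from a list of 44 symbols, of which 39 matched 78 models. PRICKLE3, PRICKLE4, CELSR3, FAT4 and MAPK9 matched none by name. Both libraries were at 1 CPM or more for 66 models (84.6%), as they were for 62.8% of all models. The median level of the 78 was 8.46 RPKM, between the 10.4 RPKM of the core and the 1.91 RPKM of all models. Between the libraries, the ratio of library 3 over library 1 was 1.5-fold or more in 9 of 73 models with 10 reads, and 3 went as far the other way, where 13.0% and 11.0% of all models did.

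Among the ligands, which trigger the pathway, WNT11 and WNT5B led. A WNT11 model on 8L had 143 and 108 CPM in libraries 1 and 3, while the models called WNT11 on 2L and 2S had at most 5 reads in a library, and the shared symbol hides which of the Xenopus genes each of them is. WNT5B had 112 and 135 CPM on 3S and 86.8 and 93.2 CPM on Scaffold39. WNT5A, a ligand of ROR2, was lower, at 13.6 and 12.6 CPM on Scaffold40 and 5.60 and 5.20 CPM on Scaffold24. Per kb the WNT11 model on 8L reached 56.0 ± 11.0 RPKM and WNT5A on Scaffold40 7.24 ± 0.411 RPKM (SD, n = 2).

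Of the receptor models, 13 of 16 reached 1 CPM. FZD7, the Frizzled known to act in Xenopus gastrulation, had 229 and 276 CPM on 9_10L and 139 and 191 CPM on 9_10S. GPC4, a glypican called Knypek in zebrafish, had 77.0 and 103 CPM on 8L and 20.02 and 32.4 CPM on 8S. RYK, another Wnt receptor, had 89.6 and 119.8 CPM on 5L and 43.3 and 59.3 CPM on 5S. ROR1, the paralog of ROR2, had 2.82 and 3.08 CPM on 4L, and per kb its 0.536 ± 0.0331 RPKM lay below both ROR2 models.

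The adhesion and matrix models had the highest median of the roles, 121 RPKM over 10 models. Most of these carry the symbol PCDH8 or FN1, while DCHS1 stood at 4.06 RPKM on 2S. The PCDH8 models lie on 2L, 2S, 7L and 7S, and the shared symbol hides which gene each of them is. They were not all high, as a second model on 2L had 8 and 14 reads and a second on 2S had 26 and 45 reads. The protocadherin PCDH8 and the matrix protein fibronectin, FN1, made up 4 of the 6 highest models of the list per kb. They were led by the higher PCDH8 model on 2L at 283 ± 6.52 RPKM and FN1 on 9_10S at 216 ± 84.0 RPKM. The small GTPase RHOA supplied the others, at 187 ± 14.4 RPKM on 4S and 136 ± 4.99 RPKM on 4L. FN1 was higher in library 3 from both copies, with log2 ratios of 0.82 on 9_10S and 0.81 on 9_10L. CELSR2, the paralog of CELSR1, had 23.3 and 23.1 CPM on 2L, and its 2.51 ± 0.0190 RPKM lay below both CELSR1 models.

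Cytoplasmic partners reached 1 CPM in 15 of 19 models. SCRIB, a scaffold protein that binds Vangl, had 101 and 115 CPM on 6L and 4.60 and 6.43 CPM on 6S. DAAM1, a formin that binds Dishevelled, had 35.9 and 29.1 CPM on 8L and 2.36 and 1.5 CPM on 8S. All 21 models of GTPases, kinases and myosin and all 3 of the ciliary effectors FUZ, INTU and WDPCP reached 1 CPM, the latter with a median of 1.23 RPKM. The 5 matched symbols without a model at 1 CPM in both libraries were WNT4, FZD8, CTHRC1, ANKRD6 and INVS. ANKRD6, known as Diversin, had 3 and 3 reads on 5L. A model called INVS, for inversin, had 20 and 31 reads on 8S. Its 4356 bp of exon fill its span from 34668418 to 34672774, and whether it holds the full gene was not tested. WNT4 had 22 and 11 reads on 7L and 4 and 2 on 7S, FZD8 had 42 and 21 reads on 6L, and CTHRC1, a secreted Wnt cofactor, had 18 and 32 reads on 6L and 2 and 7 on 6S.

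**Figure D5:**
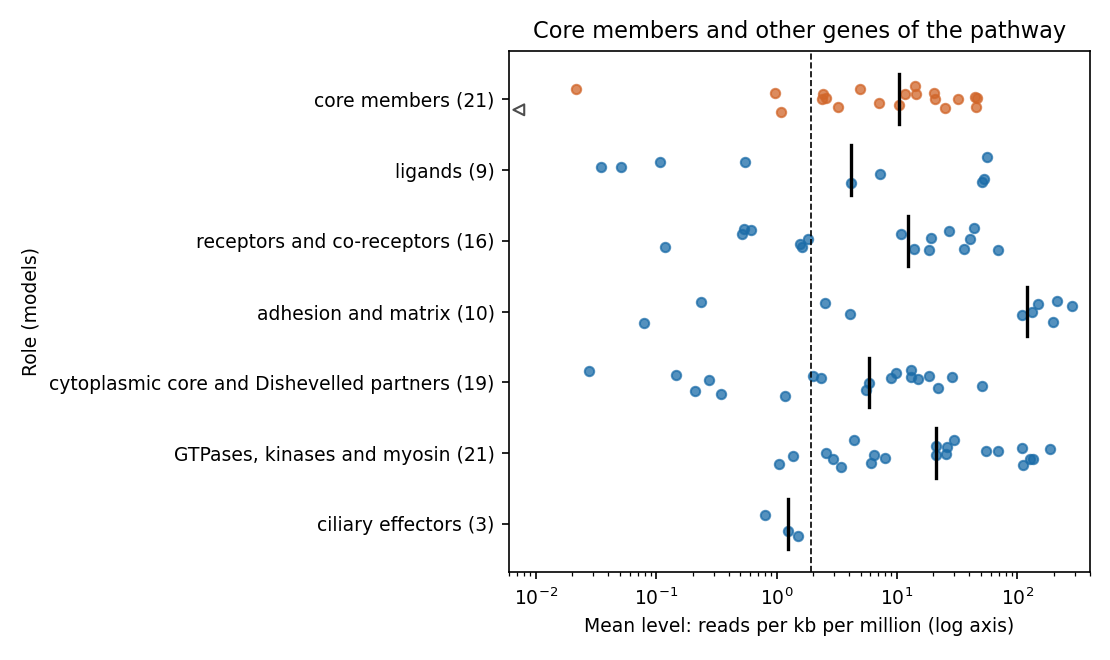
Mean level of the 2 libraries per model (x axis, RPKM, log scale) for the 21 core members (orange) and the 78 other models by role (blue), with the median of each role as a black bar, the median of all models dashed and a model at 0 reads as an open triangle. The adhesion and matrix bar, over mostly PCDH8 and FN1 models, lies farthest right at 121 RPKM. The ciliary effector bar, at 1.23 RPKM, lies left of the dashed line.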

How the data were processed

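RNA of 2 libraries was measured by sequencing of polyA-selected RNA with a kit that does not mark strand, per the labels' protocols. Read lengths of 50 and 100 bp are given there, without saying which belongs to which library. Reads were processed with FastQC, STAR 2.4.0k, HOMER and edgeR, per the submitters' processing notes. The deposited signal is an exon read count per gene model, counted and rescaled by HOMER to a common total, per the file headers. The handling of reads with several matches was not given in the sources used here.

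Low values were whole multiples of 0.808 in library 1 and 0.715 in library 3. Division by this step gave whole reads (within 0.05) for 100% of the values above 0. These are 69.5% and 68.0% of the aligned tags in the header. Unnamed models (519) took 1.32% of reads and were kept. CPM and RPKM use the recovered total and the deposited exon length. Log2 ratios add 0.1 to both values, and so do the folds between L and S copies and between libraries. Folds between genes and between the DVL2 copies add nothing. Intervals are 95% exact binomial (Clopper-Pearson), and the floor is 3 reads. These cover counting error only, as reads carry no molecular identifiers. With 1 group no count test applies, so edgeR 4.0.16 gave only TMM factors and DESeq2 1.42.0 only size factors. Read recovery and ratios were tested on simulated data. Neighbours were the 6 named models on each side, set against 15 RefSeq protein-coding genes on each side. No sequences are shown.

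The members, lists, roles and rules were chosen with earlier results of these data known. All members were named. Of the other list, the 6 highest models per kb, symbols without a model at 1 CPM and 13 symbols chosen by role were named. ITLN1, TP63, TUBA1A, T, FOXJ1, MCIDAS, A2M, TUBB2B, LMO2, DCHS1, MYL1, ACTC1, CKM, TBX6 and CHRD were picked after their values were seen. No gene was named for a similar pattern, since 2 libraries give none to compare.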

Additional observations from a re-analysis of the deposited data

How the results depend on the processing

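The number of member models at 1 CPM stayed between 14 (at 10 CPM) and 19 under every alternative run. The members' median level of 10.4 RPKM was 46.3 CPM without division by length and 28.6 RPKM with copies added up. Leaving out a library gave 8.75 to 10.8 RPKM. Of 2 models at least 1.5-fold apart between libraries, 0 were at least 2-fold apart, 1 remained with a pseudocount of 1 CPM (ROR2 on 1S), 1 with the length class subtracted (the PRICKLE2 model on 8S), and 3 passed with TMM. The count of pairs with the S copy higher was 0, and 1 without division by length (CELSR1), against 26.8% of all pairs without that division. With a library left out it was 0 to 1, and the count with the L copy higher was 2 to 3. Over all pairs the shares were then 30.0% to 30.1% for S and 39.3% to 39.8% for L. Without division by length DVL3 took the place of PRICKLE2 among the L-biased pairs, with 37.6% of all pairs L-biased. Among symbols with exactly 2 models, an alternative chosen after seeing the data, 1 of 6 pairs (PTK7) had the L copy higher. Over all such symbols it was 35.1% of 4425 pairs. The pathway list's 66 models at 1 CPM correspond to 34 symbols with copies added up. PRICKLE2's share of its family, 4.77 ± 1.09%, was 3.64 ± 0.513% without its 8S model, also chosen after seeing the data. The mean level of each of the 21 models stayed within the spread between libraries with TMM or DESeq2 scaling. Both scalings move the 2 libraries in opposite directions, so their mean can hardly shift, and this is no test of the levels. TMM and DESeq2 sizes shifted every library ratio alike, by -0.06 and -0.04 on the log2 scale. With the length class subtracted, 12 of the 19 ratios left their own counting interval. No paired analysis was possible because the libraries form 1 group and no groups share replicate numbers, while copies and genes were compared within each library. Depth limits the DVL1 and DVL3 (7L) models, whose reads fall at or near the floor.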
